A study of Mus musculus with 6 samples.

Results

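Broad domains of H3K4me3 in mouse neural stem cells (NSCs) were selected on measured values, as the peaks of the NSC H3K4me3 list that were 5000 bp or wider and held at least 3 immunoprecipitated reads per input read. This rule kept 535 of the 30416 peaks in that list. Neurons at day 11 of differentiation, purified as RedStar-positive cells, were compared with RedStar-negative NSCs at day 0. RedStar is a fluorescent protein and was driven by the promoter of the Tau gene (Mapt), so the sort took cells that had this promoter switched on. Both were C57BL/6 cells of the same source, NSCs derived from mouse embryonic stem cells and held at passages 25-30. NSCs grew in Euromed-N with N2, FGF2 and EGF, and neurons were made in a medium with less FGF2 and with N2 and B27, then matured in N2B27. Each cell type had 1 library each for H3K4me3 (Active Motif antibody) and H3K27me3 (Upstate antibody) and 1 input, which makes 6 samples. There were no replicates, so no difference below has a replicate check and none was tested, and exact (Clopper-Pearson) 95% intervals cover counting error only.

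H3K4me3, trimethylated lysine 4 of histone H3, marks promoters that are active or poised for activity. In most genes it forms a short peak at the start site, whereas at some genes it runs on into the gene body, and such broad domains have been described at genes that set or keep a cell's identity and at highly transcribed genes. H3K27me3, trimethylated lysine 27, is the product of the Polycomb repressive complex PRC2, and a promoter that carries both marks is called bivalent.

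The promoters of 6 genes that carry the results are shown to give the sequence at domains of both kinds, those that kept neuronal H3K4me3 and those where the neuron list held none. Olig2 and Sox2, transcription factor genes of neural progenitors, had broad domains with neuronal H3K4me3 over most of their length. The domain of Dusp6, a phosphatase gene that damps ERK signalling, also met a neuronal H3K27me3 peak, which did not cover the start site of Dusp6. Acsbg1, an acyl-CoA synthetase gene, Tenc1, a tensin gene, and Slc25a18, a mitochondrial glutamate carrier gene, had a broad domain in NSCs and no overlapping peak of neuronal H3K4me3. Each run is the 250 bases before a start site, 5′ to 3′ on the gene's strand, from RefSeq on GRCm38.p6, and its coordinates are of that build and not of mm9, the build of the peaks. Capitals mark each CG dinucleotide.
Olig2 (chr16:91225300-91225549, plus strand): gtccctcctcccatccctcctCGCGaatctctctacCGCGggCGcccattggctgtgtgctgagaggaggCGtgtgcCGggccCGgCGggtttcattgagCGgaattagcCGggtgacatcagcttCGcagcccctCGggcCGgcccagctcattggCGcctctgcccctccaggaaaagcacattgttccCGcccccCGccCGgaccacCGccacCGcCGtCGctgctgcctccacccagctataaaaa
Sox2 (chr3:34649745-34649994, plus strand): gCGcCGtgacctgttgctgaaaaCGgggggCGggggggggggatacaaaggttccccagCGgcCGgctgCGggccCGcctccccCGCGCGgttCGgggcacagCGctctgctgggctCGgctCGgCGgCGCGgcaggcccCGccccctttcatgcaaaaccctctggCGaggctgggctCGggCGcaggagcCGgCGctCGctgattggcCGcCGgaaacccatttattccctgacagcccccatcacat
Dusp6 (chr10:99262981-99263230, plus strand): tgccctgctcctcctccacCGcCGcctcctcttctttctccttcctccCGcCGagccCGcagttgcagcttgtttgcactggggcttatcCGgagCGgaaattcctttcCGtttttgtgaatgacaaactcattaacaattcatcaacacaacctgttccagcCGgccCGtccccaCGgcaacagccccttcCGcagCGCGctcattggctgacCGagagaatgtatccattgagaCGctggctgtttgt
Acsbg1 (chr9:54661886-54662135, minus strand): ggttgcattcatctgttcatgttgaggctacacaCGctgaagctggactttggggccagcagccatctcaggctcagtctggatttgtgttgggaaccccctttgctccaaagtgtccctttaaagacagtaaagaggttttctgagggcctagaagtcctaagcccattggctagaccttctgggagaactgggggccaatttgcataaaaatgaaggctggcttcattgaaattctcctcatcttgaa
Tenc1, named Tns2 in RefSeq (chr15:102102684-102102933, plus strand): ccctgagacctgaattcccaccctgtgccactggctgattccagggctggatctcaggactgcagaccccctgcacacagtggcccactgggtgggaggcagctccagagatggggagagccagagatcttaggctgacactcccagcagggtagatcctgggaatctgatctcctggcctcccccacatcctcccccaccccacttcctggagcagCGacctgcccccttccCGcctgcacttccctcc
Slc25a18 (chr6:120773518-120773767, plus strand): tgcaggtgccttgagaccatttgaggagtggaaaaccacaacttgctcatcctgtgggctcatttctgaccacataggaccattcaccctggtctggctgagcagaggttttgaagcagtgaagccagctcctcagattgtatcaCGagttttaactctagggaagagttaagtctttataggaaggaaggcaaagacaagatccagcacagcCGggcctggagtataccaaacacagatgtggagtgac

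These upstream runs held 22 CG dinucleotides at Olig2, 27 at Sox2 and 16 at Dusp6, against 1 at Acsbg1, 2 at Tenc1 and 2 at Slc25a18. The median over all 32851 promoters of the RefSeq table was 6. Searched on both strands, TATAAA occurred in the runs of Olig2 and Slc25a18 and in 12.4% of all promoters of the same length. CCAAT occurred at Olig2, Sox2, Dusp6 and Acsbg1 and in 33.8% of all promoters, and TGGGAA at Acsbg1 and Tenc1 and in 21.6% of all. CACGTG occurred in none of the 6 and in 6.02% of all. These 6 genes were chosen after their values were seen. A CG summary over the whole set was void, since only 366 of the 471 named genes with a start site in a broad domain (77.7%) had an entry in the table.

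Among the libraries, reads inside called peaks numbered 983266 for neuron H3K4me3 and 3623654 for NSC H3K4me3, and 3161819 for neuron H3K27me3 and 3272324 for NSC H3K27me3. The neuron H3K4me3 list held 14846 peaks and was the weaker of the H3K4me3 pair. Over 397 peaks called with identical bounds from both cell types, the neuron to NSC ratio was 0.399 for H3K4me3 reads and 0.775 for input reads. Its part in the results on neuronal H3K4me3 was not tested, and an absent neuronal peak means no call in this library. Of 8 neural progenitor markers, 8 had an H3K4me3 peak within 1000 bp of the start site in neurons and 6 in NSCs, where Sox1 and Pax6 had none. Of 6 neuron markers in the gene tables, 4 had one in neurons, where Stmn2 and Syt1 had none, and 4 in NSCs, where Dcx and Stmn2 had none. Of 4 scored astrocyte markers, 1 had one in neurons (Gja1) and 2 in NSCs (S100b and Gja1). The oligodendrocyte marker Mbp had none in either cell type. Esrrb, the 1 pluripotency marker that could be scored, had no H3K4me3 peak in either cell type, nor had any of the 3 scored fibroblast markers and 3 scored blood, microglia and endothelial markers. Fewer cells with a mark and less of it per cell cannot be told apart in such bulk libraries.

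The domains had a median width of 6000 bp (5000 to 21800 bp) and a median of 7.67 immunoprecipitated reads per input read (3 to 16.5). They held 122 to 2093 immunoprecipitated reads each, with a median of 522. Together they covered 3.60 Mb, which was 6.27% of the length of the NSC H3K4me3 list and 8.09% of its reads. These values chose the domains and are given as a description. A further 123 peaks were as wide but had a ratio under 3, and 19167 narrower peaks had a ratio of 3 or more.

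**Figure D1:**
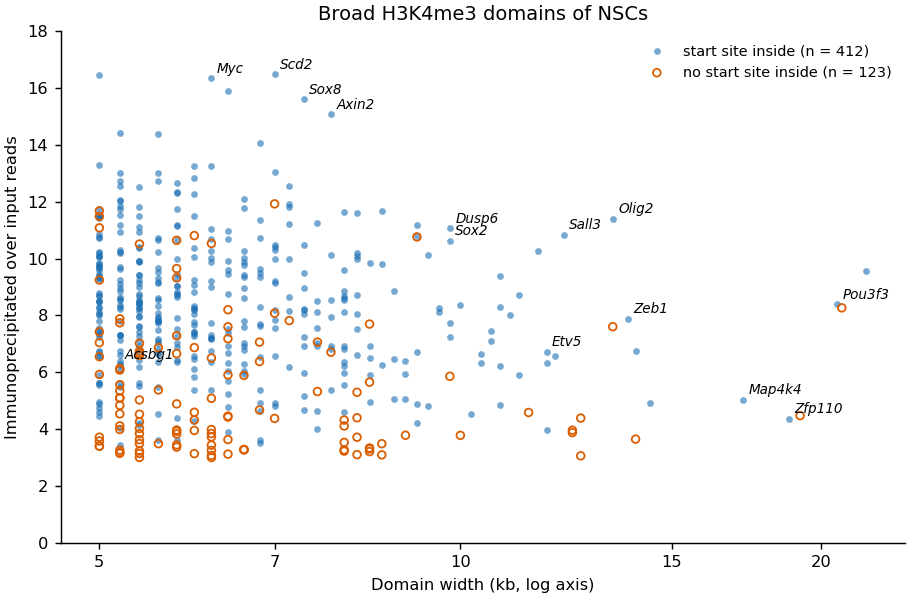
Width in kb (log axis) against immunoprecipitated over input reads for the 535 broad domains, 1 point each, with filled points for the 412 that held a start site and open circles for the 123 that held none. Most domains lie near the lower width limit, while Pou3f3 reached 20600 bp and Scd2 a ratio of 16.5.

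The widest domain, at chr13:83860200-83881999 on mm9, measured 21800 bp with 1817 reads over 190 input reads. It held 2 start sites, both of genes without a symbol, and the nearest start site of a named gene was that of Mef2c, a neuronal and muscle transcription factor gene, 217007 bp away. Neuronal H3K4me3 peaks with 824 reads covered 83.5% of it. Here and below, reads of another list at a domain are those of the whole called peaks that met it. They include parts of these peaks beyond the domain and leave out reads outside called peaks. The domain of Pou3f3 (Brn1), a POU transcription factor gene of neural progenitors and upper-layer neurons, measured 20600 bp and was 86.4% covered in neurons. Olig2, which specifies motor neurons and oligodendrocytes, had 1619 NSC reads over 142 input reads in a domain of 13400 bp. A neuronal peak with 675 reads over 110 input reads covered 74.6% of that domain. The domain of Zfp110 (18800 bp) was covered over 40.4% in neurons and that of the kinase gene Map4k4 (17200 bp) over 32.6%. Coverage was 30.6% at the Arf GTPase activator gene Agap1 (14400 bp), 24.3% at Zfp146 with Gm5113 (14000 bp) and 49.3% at Zeb1 (13800 bp), a zinc finger repressor gene of epithelial to mesenchymal transition. Among the domains named so far in this paragraph, neuronal coverage was highest at Pou3f3, near Mef2c and at Olig2. Olig2 was not among the widest 10, and these also held 2 highly covered domains given next. Those lay near Fcgr3 (85.4%) and over Pcdhga genes (71.2%).

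Among the widest 10 was also a domain of 19200 bp at chr1:172993400-173012599, 3908 bp from the start site of Fcgr3, an Fc receptor gene of immune cells. It held 2093 reads but also 468 input reads, 24.4 per kb against a median of 10.5 per kb over all broad domains, and peaks of all 3 other lists covered at least 85.4% of it. Raised input reads such as these were found in 5 domains, those over 20 input reads per kb. A domain of 14000 bp in the body of Zfp606 also held no start site, the nearest being 5359 bp away, and none of the other 3 lists held a peak there. The second in width, 20800 bp on chromosome 18, lay over bodies of Pcdhga protocadherin genes, and 71.2% of it was covered in neurons. It held no start site of the gene tables, where the nearest of a named gene was that of Diap1, 109330 bp away. Starts of genes missing from these tables would not be seen.

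By ratio, the leading domains lay at Scd2 (a fatty acid desaturase gene, 1138 reads over 69 input reads), Igf1r (the IGF1 receptor gene, 692 over 42) and Myc (915 over 56). Sox11, Sox8, Axin2 (a feedback inhibitor gene of Wnt signalling), Ing1, Anp32a, Rfx4 and Cep57 with Fam76b completed the first 10, with ratios of 13.3 to 15.9. Neuronal H3K4me3 covered between 71.8% (Axin2) and 100% (Sox11) of these 10 domains.

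At the edge of the width rule, domains of 5000 bp near Ankrd55 (146 over 43 reads), Zfp442 (136 over 40) and Mid1 (580 over 162) were inside. Peaks of 4800 bp at Ankrd13a (551 over 33), Mxi1 (569 over 35) and Smarca2 (664 over 43) were outside it. At the edge of the ratio rule, domains near Arid5b (153 over 51), Chd1l (150 over 50) and Hnf4g (633 over 207) were inside, and peaks near Sdk2 (194 over 65), Kcnmb4 (168 over 57) and Mllt4 (244 over 83) were outside. Peaks of a ratio of 3 or more numbered 103 at 4800 bp and 68 at 5000 bp, so no gap in width set the broad domains apart.

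Most broad domains held the start of a gene. Of 535 domains, 412 held at least 1 start site (77.0%, interval 73.2 to 80.5%), where 33.9% of all NSC H3K4me3 peaks did. Domains with 1 start site numbered 280, those with 2 numbered 119, those with 3 numbered 10 and those with 4 numbered 3. Of the 119 pairs, 68 were divergent, 34 convergent and 17 on the same strand. The domains with 4 start sites were those of Rhof with 4932422M17Rik (12000 bp), of the histone genes Hist1h2af, Hist1h3g and Hist1h4h (7600 bp) and of Ncl, the nucleolin gene (5800 bp). Wider peaks hold more positions, so the share with a start site is not independent of the width rule. Of the 123 domains with no start site, 92 lay over the body of a named gene and 117 had no start site within 1000 bp. Start sites here are those of genes in the authors' gene tables, 1 per gene. Other starts of these genes and starts of genes missing from the tables were not counted, so a domain without a start site may hold one of those.

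The domains extended into the gene. In the 280 domains with 1 start site, the median reach was 1351 bp upstream (quartiles 892.5 and 2087 bp) and 4594.5 bp downstream (quartiles 3823 and 5826 bp). In 247 of them (88.2%) the downstream arm was the longer, and in 246 the downstream edge lay inside the gene. Narrower peaks with a ratio of 3 or more had the same lean, with 86.5% of 7751 reaching further downstream, but over a median of 680 bp upstream and 1361 bp downstream. The lean was therefore close to that of narrower peaks, while the reach was set by the width rule.

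The domains held the start sites of 560 genes, 472 of them with a symbol, out of 18778 in the gene tables (2.98%). In symbols, 471 of 14561 had a start site in a broad domain (3.23%), or 4.22% of the 11159 with a start site in any NSC H3K4me3 peak. On 22 gene lists, 68 of 459 scored genes did (14.8%). The lists were chosen with earlier results of these data known, and their counts are a description beside that 3.23%.

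Genes of neural progenitors and of Notch signalling, which holds them undifferentiated, were found in broad domains at shares of 36.7% and 25%. Of 30 scored neural progenitor genes, 25 had a start site in an NSC H3K4me3 peak and 11 in a broad domain. Pou3f3, Olig2, Sox2, Hes1, Slc1a3, Fabp7, Pou3f2, Vim, Hes5 and Nfia were among them, and all 11 met a neuronal H3K4me3 peak. Sox2, the transcription factor gene of neural stem cell self-renewal, had 808 NSC reads over 76 input reads in a domain of 9800 bp. A neuronal peak with 380 reads over 82 input reads covered 91.8% of that domain. Neuronal peaks covered 87.5% of the domain of Pou3f2 and 82.8% of that of Vim, an intermediate filament gene. Coverage was 42.5% at Hes1, a repressor gene switched on by Notch, 40.5% at Fabp7, a radial glial lipid-binding protein gene, and 40.0% at Slc1a3, a glial glutamate transporter gene. The progenitor genes thus ranged from domains covered over most of their length in neurons to domains covered over less than 50%. Of 24 scored Notch pathway genes, 6 lay in broad domains, namely the ligand gene Dll1, the modifier gene Lfng and the Hes and Hey family genes Hes1, Hes5, Hes6 and Hey1. Dll1 had 409 neuronal reads over 52 input reads and 683 NSC reads over 54 input reads, and its 5800 bp were covered whole. Beside these values stand the progenitor markers with H3K4me3 in neurons, 8 of 8, and the part of NSCs carried through the sort was not tested.

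The Sox family, transcription factors that share an HMG box, had 7 of 16 scored genes in broad domains, which were Sox2, Sox4, Sox6, Sox8, Sox11, Sox12 and Sox21. Neuronal H3K4me3 covered 82.9% (Sox4) to 100% (Sox6 and Sox11) of these domains, with a median of 91.8%. Over all 488 broad domains met by a neuronal peak the median coverage was 60.5%. Of 31 scored patterning homeobox and related genes, 7 were in broad domains. En1, Meis1, Meis2, Irx5 and Zic2 were covered over 80.0% to 95.1% of their length in neurons, whereas Tgif1 was covered over 40.0% and Zic1 over 25.9%.

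Growth factor signalling had 11 of 25 scored genes in broad domains. NSCs are kept with FGF2 and EGF, which signal through ERK, and many genes on this list are switched on by ERK and then damp it. The 11 were the receptor gene Egfr, the adaptor gene Shc1, the inhibitor genes Spry1, Spry2, Spry4 and Spred1, the phosphatase genes Dusp4, Dusp5 and Dusp6 and the ETS factor genes Etv1 and Etv5. All 11 met a neuronal H3K4me3 peak, with a median coverage of 51.9%. Etv5 stood lowest, with 860 NSC reads in 11800 bp and a neuronal peak of 100 reads that covered 16.9% of that length. Spry2 stood highest at 87.9% and Etv1 next at 86.8%. Of these 11 domains, 4 also met a neuronal H3K27me3 peak (Etv5, Dusp6, Spry4 and Dusp4) and none an NSC H3K27me3 peak. Over all 535 broad domains, 7.85% met a neuronal and 2.99% an NSC H3K27me3 peak. At Spry4 the neuronal peak covered 23.4% of the domain. The start sites of Etv5, Dusp6 and Spry4 lay in neuronal H3K4me3 and outside neuronal H3K27me3. With peaks of a false discovery rate under 1e-20 in both lists, broad domains with H3K27me3 in neurons only fell from 34 to 7. A link to the culture media was not tested.

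Immediate early genes, which respond to signals within minutes, had 8 of 24 scored genes in broad domains. Neuronal coverage ran from 18.5% at Egr3 to 96.6% at Btg2, an antiproliferative gene, with Jun at 84.8% and Myc at 77.4%. Of 32 scored cell cycle genes, all 32 had a start site in an NSC H3K4me3 peak and 5 in a broad domain. Ccnd1, the cyclin D1 gene that drives entry into S phase, had 64 neuronal reads over 19 input reads and 1040 NSC reads over 111 input reads, and 22.2% of its 10800 bp was covered in neurons. Plk1, a mitotic kinase gene, was covered over 19.2% and Cdkn1a, the p21 inhibitor gene, over 28.1%. Cdkn1b, the p27 inhibitor gene, had 387 neuronal reads and 1212 NSC reads, and 71.4% of its 11200 bp was covered. Cdkn2c, the p18 inhibitor gene, was covered over 61.5%. Neuronal coverage was thus lower at Ccnd1, Plk1 and Cdkn1a than at Cdkn1b and Cdkn2c.

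**Figure D2:**
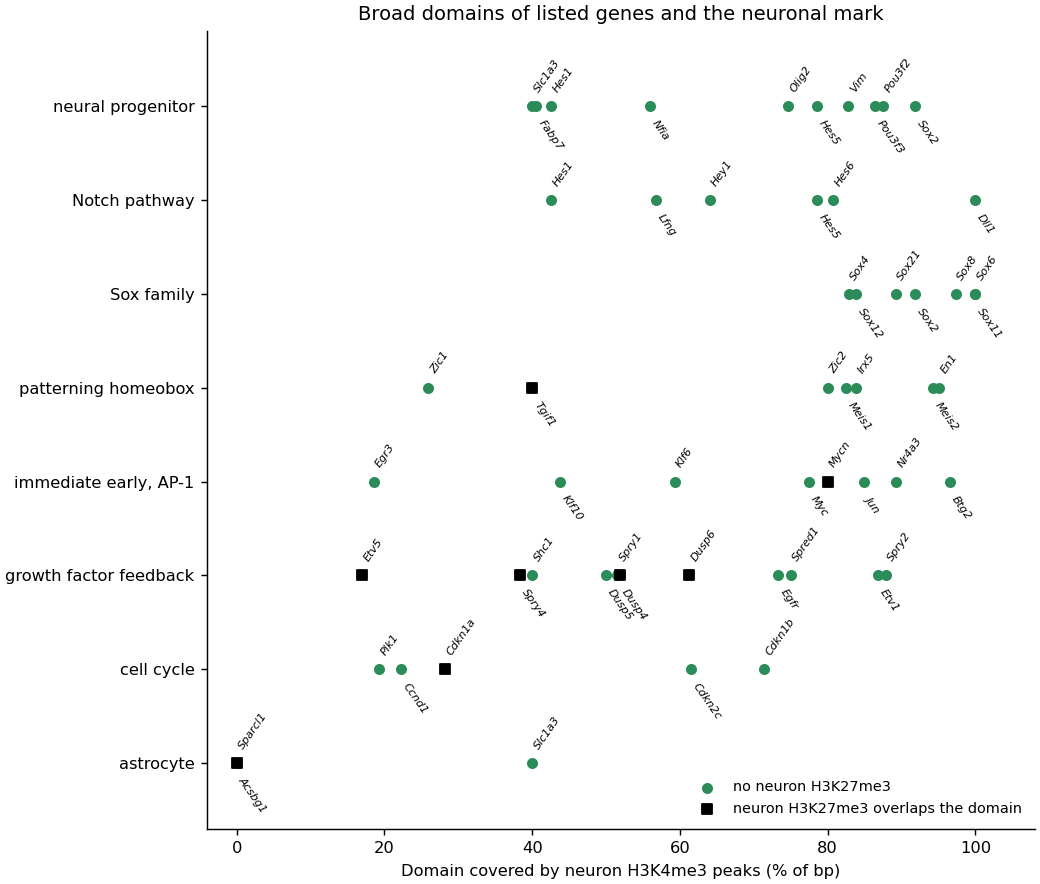
Share of each broad domain covered by neuron H3K4me3 peaks (percent of bp, horizontal axis) for genes of 8 lists (rows), 1 point per gene shown, with squares where a neuron H3K27me3 peak also met the domain. The 7 Sox domains lie at 82.9% or more, while Etv5 lies at 16.9% and the astrocyte genes Sparcl1 (square) and Acsbg1 (circle, hidden behind it) at 0.

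Of 16 scored astrocyte genes, 3 were in broad domains. Slc1a3 had 94 neuronal reads and 542 NSC reads. Sparcl1, a secreted matrix protein gene with 418 NSC reads over 87 input reads, and Acsbg1, with 338 over 54, met no neuronal H3K4me3 peak. Smaller counts came from the Id and E protein genes (2 of 7, Id3 and Tcf4), the Wnt and BMP genes (2 of 24, Axin2 and Smad7), the Polycomb and Trithorax genes (3 of 30, Kdm6b, Jarid2 and Rnf2) and housekeeping genes (2 of 20, Actg1 and Tbp). Among 7 scored oligodendrocyte genes Olig2 was the 1 in a broad domain. Foxc1 was the 1 of 22 mesoderm, endoderm and neural crest genes and Wnt5a the 1 of 26 secreted ligand genes.

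The neuronal gene lists had 0 or 1 member in a broad domain. None of 22 scored neuronal cytoskeleton and RNA-binding genes lay in one, although 13 had a start site in an NSC H3K4me3 peak. Of 28 neuronal lineage transcription factor genes, 1 did (Ebf3, 3.57%). The share over all symbols was 3.23%, so counts of 0 or 1 on lists this short show no lack of such genes. Among 9 pluripotency genes, 6 fibroblast and mesenchyme genes and 7 microglia, blood and endothelial genes the count was 0. Of the cell type markers, 5 of 8 progenitor markers (Sox2, Olig2, Hes5, Fabp7 and Vim) lay in a broad domain, against 0 of 6 neuron markers and 0 of 4 astrocyte markers. Zinc finger genes were looked at after the widest domains were seen, and 13 of 302 symbols that start with Zfp, Zkscan or Zscan lay in broad domains (4.30%), beside the 3.23% of all symbols.

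At most broad domains, neurons still had H3K4me3, over part of the length. A neuronal H3K4me3 peak met 488 of 535 domains by 1 bp or more (91.2%, interval 88.5 to 93.5%), where 37.0% of all NSC H3K4me3 peaks were met. A wide peak meets other peaks by its length alone, so the midpoint was also used. It lay in a neuronal peak in 369 broad domains (69.0%, interval 64.9 to 72.9%), against 49.4% of narrower peaks with a ratio of 3 or more, 21.1% of peaks as wide with a lower ratio and 33.7% of all NSC peaks. At least 50% of the length was covered in 329 domains, or 61.5%, against 31.0% of all NSC peaks. With neuronal peaks of a false discovery rate (FDR) under 1e-20 alone, 408 domains were met (76.3%).

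Domains with a start site met neuronal H3K4me3 more often than those without. Of the 412 broad domains with one, 405 met a neuronal peak (98.3%, interval 96.5 to 99.3%), and of the 123 without one, 83 did (67.5%, interval 58.4 to 75.6%). The domains without one were also weaker in NSCs. Their median ratio was 4.47 against 8.27, and their median was 49.0 immunoprecipitated reads per kb against 89.6. The part of this difference in the contrast was not tested. Peaks of 2000 bp to under 5000 bp that held a start site and had a ratio of 3 or more met a neuronal peak in 95.7% of 6268 cases. By midpoint the order was the other way, with 77.2% of broad domains with a start site and 89.1% of those narrower peaks. The distance of these midpoints from the start sites was not measured, and its part in the reversed order was not tested.

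Where a neuronal peak met a broad domain, it covered a median of 60.5% of the length (quartiles 42.8 and 78.2%). For domains with a start site the median was 63.0%, beside 71.4% at peaks of 2000 bp to under 5000 bp with a start site. Immunoprecipitated reads of the neuronal peaks over those of the NSC domain had a median of 0.296 (quartiles 0.222 and 0.368). It was 0.301 at domains with a start site and 0.306 at those narrower peaks. The NSC width and reads by which the domains were selected are the denominators of both measures. These values therefore cannot show whether the kinds of peak differ. This ratio also reads the weaker neuron library, and per kb of called peak it was 0.495. A single neuronal peak lay in 365 domains, 2 in 104, 3 in 15 and 4 or more in 4. Neuronal peaks covered 17 domains whole, and those of Brd2 (a bromodomain reader gene, 7800 bp), Sox11, Dll1, Zcchc2 and Ddr1 (a collagen receptor kinase gene) led these by width.

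**Figure D3:**
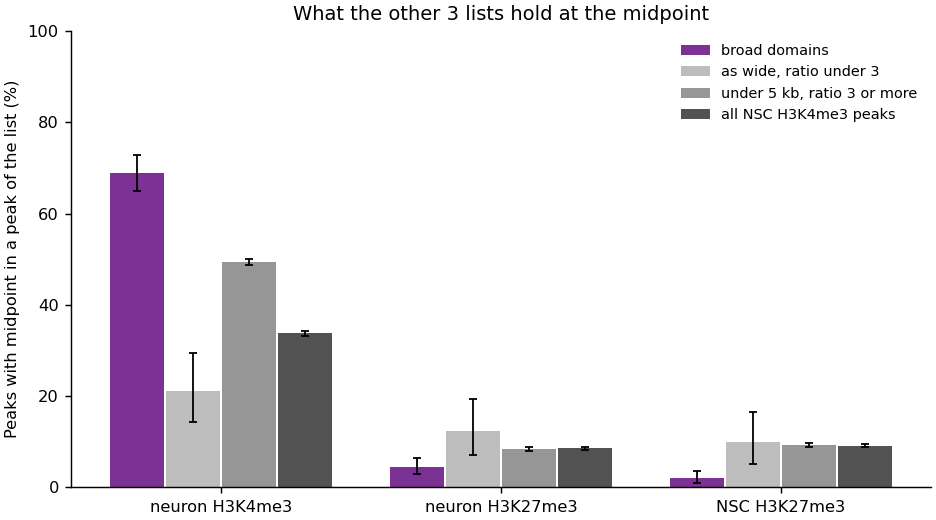
Percent of NSC H3K4me3 peaks whose midpoint lay in a peak of the neuron H3K4me3, neuron H3K27me3 or NSC H3K27me3 list, as bars from 0 for 4 classes of NSC peak, with exact 95% intervals for counting error. For neuron H3K4me3 the broad domains stand at 69.0% and all NSC peaks at 33.7%, while for NSC H3K27me3 they stand at 1.87% and 9.07%.

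The neuronal mark sat at and just inside the start site. Among the 280 domains with 1 start site, the start itself lay in a neuronal peak in 237 (84.6%, interval 79.9 to 88.7%). At 1000 bp downstream, 254 of the 274 domains that reached that far were covered (92.7%). At 3000 bp downstream it was 122 of 251 (48.6%), at 4000 bp 73 of 198 (36.9%), at 5000 bp 31 of 111 (27.9%) and at 7000 bp 3 of 26 (11.5%). On the upstream side, 87 of 194 were covered at 1000 bp (44.8%) 12 of 40 at 3000 bp (30.0%) and 8 of 14 at 4000 bp (57.1%, interval 28.9 to 82.3%). Coverage in neurons was thus lower with distance downstream from 1000 bp on, as a share of the domains that still reached each position, and had no single direction upstream, where few domains reached far.

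**Figure D4:**
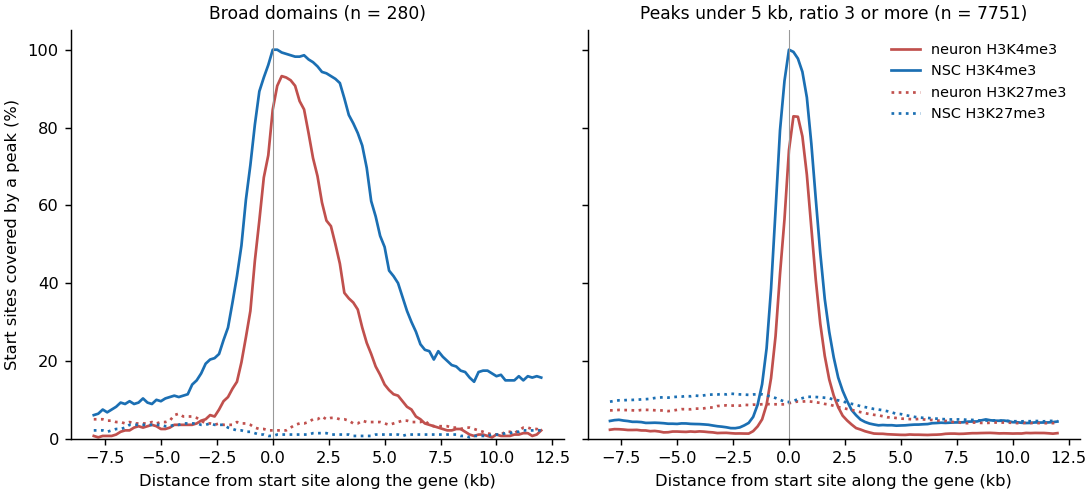
Percent of start sites covered by a peak of each of the 4 lists (vertical axis) against distance along the gene in kb (horizontal axis, start site at 0), for the 280 broad domains with 1 start site (left) and 7751 narrower peaks with a ratio of 3 or more (right). In broad domains the neuron line runs inside the NSC line on both sides, with 90.7% of the 280 start sites covered 1000 bp downstream, and both H3K27me3 lines stay low. The lines take all 280 at each distance, also where a domain no longer reached.

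By the same width and ratio rule, neurons had 140 broad H3K4me3 peaks. Of these, 101 (72.1%) lay over an NSC broad domain and all 140 over an NSC H3K4me3 peak of some width, while 100 of the 535 NSC broad domains (18.7%) met one. The neuronal peaks at Olig2 (10000 bp), Etv1 (9400 bp), Sox2 (9000 bp), Sox8 (8400 bp) and Sh3bp4 (8400 bp) were among the widest that lay over NSC broad domains. Grik2, a kainate receptor subunit gene, had a neuronal broad peak of 8200 bp, which held 317 reads over 88 input reads, and no NSC broad domain under it. At the other end, Il3ra (6.06% covered, 20 neuronal reads and 352 NSC reads), a domain in the body of A630033E08Rik (7.32%) and a domain in the body of Cdh4, a cadherin gene (9.52%, 25 neuronal and 557 NSC reads), were the least covered of those met. Next came domains in the bodies of Pde4b (10.5%, 26 neuronal and 415 NSC reads) and Zfp354c (10.9%, 26 neuronal and 355 NSC reads).

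In 47 domains the neuron list held no H3K4me3 peak, and 7 of these held a start site. These 7 were the domains of Tenc1 (9400 bp, 423 NSC reads over 88 input reads), Sparcl1 (7000 bp, 418 over 87), Slc25a18 (6800 bp, 574 over 117), Slc27a1 (5600 bp, 475 over 67), Chst7 (5200 bp, 318 over 25), Acsbg1 (5200 bp, 338 over 54) and BC002059 (5200 bp, 165 over 41). Slc27a1 encodes a fatty acid transporter and Chst7 a carbohydrate sulfotransferase. Of the 7, 6 had an entry in the RefSeq promoter table, with 1 CG dinucleotide in the 250 upstream bases at Acsbg1, 2 each at Tenc1 and Slc25a18, 8 each at BC002059 and Chst7 and a median of 10 over 3 starts at Slc27a1. The low counts printed above for Acsbg1, Tenc1 and Slc25a18 therefore hold for 3 of these 6. The widest domains without neuronal H3K4me3 and without a start site lay in the bodies of Zfp606, Zeb1 (12400 bp), Cdh4 (11400 bp) and Chd7 (10000 bp), a chromatin remodeller gene.

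H3K27me3 was scarce in broad domains. A neuronal H3K27me3 peak met 42 of 535 (7.85%, interval 5.72 to 10.5%), where 10.9% of all NSC H3K4me3 peaks were met, and an NSC H3K27me3 peak met 16 (2.99%, interval 1.72 to 4.81%), where again 10.9% of all peaks were. By midpoint the shares were 4.30% in neurons and 1.87% in NSCs, against 8.48% and 9.07% of all NSC H3K4me3 peaks. At least 50% covered were 17 domains in neurons (3.18%, against 8.81% of all peaks) and 9 in NSCs (1.68%, against 9.30%). For peaks of 2000 bp to under 5000 bp with a start site and a ratio of 3 or more, the midpoint shares were 4.71% in neurons and 4.58% in NSCs. The NSC share at broad domains with a start site was 1.46% by midpoint (6 of 412, interval 0.536 to 3.14%), below those 4.58%. The neuronal share there was 4.37% (interval 2.61 to 6.82%), close to those 4.71%. At start sites, 8 of 560 (1.43%) lay in neuronal and 4 of 560 (0.714%) in NSC H3K27me3, against 7.70% and 7.98% of 11771 start sites in narrower peaks with a ratio of 3 or more. This last class takes every width under 5000 bp. Its peaks with a start site had midpoint shares of 8.66% in neurons and 8.81% in NSCs, above the 4.71% and 4.58% from 2000 bp on.

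Where NSC H3K27me3 was present, it covered the domain of Lhx4, a LIM homeobox gene, whole, and neuronal H3K27me3 covered 83.3% of it. The protocadherin genes Pcdh7 (50% in neurons and 95.2% in NSCs) and Pcdh17 (36.7% in neurons and 83.3% in NSCs) and the proto-oncogene Mycn (20% in neurons and 60.0% in NSCs) had both. The start sites of Lhx4 and Pcdh7 themselves lay in NSC H3K27me3 and outside neuronal H3K27me3. A region near Gm11733 (80.6% in neurons and 100% in NSCs) had both and no neuronal H3K4me3. The Fcgr3 region above (99.0% in neurons and 100% in NSCs) was among those with raised input reads. H3K27me3 in NSCs alone covered 32.0% of the domain of Smad7, an inhibitor gene of TGF-beta signalling, and 24.1% of that of Trpm8, a cold-sensing channel gene. The Trpm8 peak, of 22800 bp, had 460 reads over 551 input reads. These counts are not scaled for library depth, and the peak had an FDR under 0.001 as all deposited peaks had. The H3K4me3 domain held 37.8 input reads per kb, above those of the Fcgr3 region. NSC H3K27me3 was also without the neuronal one in a domain near Zfp68 (62.5%), in the domain of 12400 bp in the body of Zeb1 (30.6%, 49 reads over 42 input reads) and in one over the body of 2610008E11Rik (58.6%).

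With all deposited peaks, more broad domains had H3K27me3 in neurons only than in NSCs only. There were 34 with a neuronal and no NSC peak (6.36%), where 3.42% of all NSC H3K4me3 peaks were such, and 8 with an NSC and no neuronal peak (1.495%), where 3.46% were. Narrower peaks with a ratio of 3 or more had 490 in neurons only (2.56%) and 666 in NSCs only (3.47%). By midpoint there were 19 in neurons only and 6 in NSCs only, with at least 50% covered 12 and 4, with peaks of an FDR under 1e-20 in both lists 7 and 4, and with the strongest 10000 peaks of both lists 9 and 7, which leaves little of the excess. Of the 34, 7 had a neuronal peak of that FDR. Chromosome 1, where input reads in broad domains ran at 15.6 per kb against an autosome median of 10.3, held 9 of its 74 domains in the class of 34 (12.2%), and other chromosomes 25 of 461 (5.42%). Neuronal H3K4me3 covered a median of 32.1% of the 34 and 57.7% of the 485 domains with H3K27me3 in neither cell type. The median was 80.7% in the 8 with H3K27me3 in both cell types and 67.0% in the 8 with it in NSCs only, so neuronal H3K27me3 did not go with low coverage throughout.

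Of the 34, 25 held a start site. Igfbp2, the gene of an IGF-binding protein, had 385 neuronal H3K27me3 reads over 159 input reads in a peak of 15200 bp that covered its domain whole, no NSC H3K27me3 peak, and 40 neuronal and 797 NSC H3K4me3 reads. It lies on chromosome 1, as do Tmem63a (92.0% covered by neuronal H3K27me3) and Plxna2, a semaphorin co-receptor gene (78.8%). Off chromosome 1, Dusp4 had 241 neuronal H3K27me3 reads over 93 input reads in peaks of 12200 bp in all. These covered 77.8% of its domain of 5400 bp, which had 106 neuronal and 480 NSC H3K4me3 reads. Tgif1, a homeobox repressor gene, was 74.3% covered by 131 over 53 reads, and 40.0% covered by neuronal H3K4me3. Etv5 was 64.4% covered by 155 over 71 reads, and Dusp6 was 63.3% covered by 130 over 63 reads. The start sites of Tgif1, Etv5 and Dusp6 lay outside neuronal H3K27me3, which covered other parts of these domains. At Dusp6 neuronal H3K4me3 had 257 reads over 58 input reads, 61.2% of the length, and NSC H3K4me3 1184 reads over 107. Slc27a1 was 57.1% covered by neuronal H3K27me3 and held no neuronal H3K4me3. Cdkn1a (37.5%), Spry4 (23.4%) and Sparcl1 (20%) had smaller neuronal H3K27me3 peaks, and at Foxc1 (6.45%) and Lrig1 (2.86%) the peak met the edge alone. A domain in the body of Pvt1, a long non-coding RNA gene, 68999 bp from its start site, was covered whole by neuronal H3K27me3.

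Sorted by what the other 3 lists held, 445 of the 535 domains (83.2%) met neuronal H3K4me3 and no H3K27me3, and 40 (7.48%) met none of the 3 lists. A further 29 had neuronal H3K4me3 with neuronal H3K27me3, 7 had all 3 lists, and 7 had neuronal H3K4me3 with NSC H3K27me3. Neuronal H3K27me3 alone was found in 5, NSC H3K27me3 alone in 1 and both H3K27me3 lists without neuronal H3K4me3 in 1.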

How the data were processed

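Chromatin from 6 samples was analysed, 4 immunoprecipitated libraries and 2 inputs. Per the submitters' processing notes, FastQC, Bowtie, SAMtools and SICER were used on mm9; for versions, SICER settings and duplicate handling the sources used here give nothing. The authors deposited, per immunoprecipitated library, SICER peaks with a count of immunoprecipitated reads, a count of input reads, a p-value, a fold (ratio over input) and an FDR, all under 0.001. Peak p-values and folds are the authors' and were used only to describe or filter peaks. Other deposited values used were the gene positions in the authors' gene tables, whose starts and strands gave the start sites. Positions are mm9 as the authors' files give them, and peak bounds move in steps of 200 bp.

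The read ratio was immunoprecipitated over input counts, with 0 input taken as 1. A domain met a peak when they shared 1 bp. A start site counted as inside by its own position. A gene without a symbol was counted and not named. RefSeq (GRCm38.p6) gave upstream sequences and older symbols alone. With 1 library per group there is no test, and sums of reads over called peaks move with how much was called, so lengths or coverage stand beside them. Depth is known only as reads inside peaks.

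Domains, gene lists and comparisons were chosen with earlier results of these data known. The text names the widest 10 domains, the 10 of the highest ratio, the 5 extremes for each other list, the widest 3 without a start site, the 3 with most start sites and up to 4 members of each gene list in the widest domains; further list members are named to complete a count. Some list members are not reported here. Overlap counting was tested on simulated intervals. Alternatives covered the width and ratio limits, the overlap measure and the strength of peaks in the other lists. Calculations used matplotlib 3.10.9, scipy 1.17.1, pandas 2.3.3 and numpy 2.4.6 under Python 3.11.15.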

Additional observations from a re-analysis of the deposited data

How the results depend on the processing

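Of the values that carry the report, 33 moved by less than their counting interval, spread or 1.5 times and 27 by more. The share of broad domains met by neuron H3K4me3, 91.2%, was 85.1% at a ratio of 2, 98.8% at a ratio of 5, 61.5% with 50% covered, 69.0% by midpoint, 76.3% at an FDR under 1e-20 and 79.3% with the strongest 10000 neuronal peaks. For neuron H3K27me3, 7.85%, these last 4 gave 3.18%, 4.30%, 2.06% and 1.87%, and for NSC H3K27me3, 2.99%, the share was 1.68% with 50% covered and 1.495% under both stricter lists. The share with a start site, 77.0%, was 72.4% at 8000 bp, 69.4% at a ratio of 2 and 87.5% at a ratio of 5. The neuron over NSC read ratio of 0.296 became 0.495 per kb, and the 68 list genes became 103 at 4000 bp and 13 at 8000 bp.

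The following were chosen after seeing the data. The 34 domains with H3K27me3 in neurons only became 12 with 50% covered, 19 by midpoint, 7 at an FDR under 1e-20 in both lists, 9 with the strongest 10000 peaks of both and 7 when presence needed an FDR under 1e-20 and absence held for the full NSC list. The 8 in NSCs only became 4 with 50% covered, 4 at that FDR in both lists, 6 by midpoint, 7 with the strongest 10000 peaks and 1 under the last rule. Without chromosome 1 these counts were 25 and 7.

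No paired analysis was possible because each cell type and antibody had 1 library, which also left no replicate to leave out. Depth outside peaks is unknown, so a region absent from a list is one without a call there and its reads are not known.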
